A study of Mus musculus with 16 samples.

Results

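The core circadian clock genes of the mouse hypothalamus are described here in RNA-seq libraries of 16 female mice, 4 in each of 4 groups. The 10 genes are Arntl, Clock, Per1, Per2, Per3, Cry1, Cry2, Nr1d1, Nr1d2 and Dbp. They were chosen by symbol, as the transcriptional loop of the clock and its best known direct output, and all 10 have a row in both deposited tables, of 15983 and 16005 genes. The study asked how olanzapine, an antipsychotic drug with a weight gain side effect, and minocycline, a tetracycline antibiotic, act on feeding and on the hypothalamus.

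All mice were C57BL/6 (C57BL6/J in the sample labels), were 10 weeks old at the start, and ate a high fat diet with 45 kcal% of its energy from fat for the 12 weeks of the study. OLZ+MINO mice had olanzapine at 54 mg per kg of diet and minocycline at 0.6 mg/ml of drinking water. OLZ mice had the olanzapine diet with plain water, and MINO mice had minocycline with the diet free of olanzapine. CTRL mice had neither drug. The high fat diet is therefore shared by every group, CTRL included, and no group on normal chow was analysed here. Each library is the dissected hypothalamus of 1 mouse, so the p-values below measure the spread between mice.

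The clock is a feedback loop of transcription that runs in nearly every cell. ARNTL (BMAL1) and CLOCK bind E-box sequences as a pair and switch on the Per, Cry, Nr1d and Dbp genes, the PER and CRY proteins then hold that pair back, and the NR1D proteins (REV-ERBs) repress Arntl. Within the hypothalamus lies the suprachiasmatic nucleus, the master pacemaker set by light. In rodent tissues Arntl and Dbp reach their daily peaks at nearly opposite times, which makes their ratio a rough marker of circadian phase. The sources used here do not give the hour at which each mouse was killed.

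Promoters are shown first because clock proteins act through short sequences in them. Per3, Per1 and Cry1 are printed because they are the genes whose windows held the E-box or the D-box defined below. RefSeq start sites on GRCm38.p6 were available for 9 of the 10 genes, with 13 start sites in all (Per2 is named only). The 250 bases upstream of each were searched on both strands for the E-box CACGTG, the E'-box CACGTT, the D-box TTATGTAA or TTACGTAA, the NR1D element TAGGTCA or TGGGTCA and the CRE TGACGTCA. Matches are in capitals, the sequences run 5′ to 3′ and end at the base before the start site, and the windows are chr4:151044666-151044915 (minus strand) for Per3, chr11:69098699-69098948 (plus strand) for the first Per1 start and chr10:85185055-85185304 (minus strand) for Cry1.
Per3: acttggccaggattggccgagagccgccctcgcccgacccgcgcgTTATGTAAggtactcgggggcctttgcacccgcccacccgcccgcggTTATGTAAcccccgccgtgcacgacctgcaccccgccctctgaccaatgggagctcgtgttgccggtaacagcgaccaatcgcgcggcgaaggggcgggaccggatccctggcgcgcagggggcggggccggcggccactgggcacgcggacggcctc
Per1: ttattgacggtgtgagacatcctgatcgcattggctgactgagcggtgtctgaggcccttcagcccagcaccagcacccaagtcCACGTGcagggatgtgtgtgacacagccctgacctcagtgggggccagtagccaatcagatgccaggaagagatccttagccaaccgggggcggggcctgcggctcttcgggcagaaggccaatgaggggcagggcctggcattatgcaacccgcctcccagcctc
Cry1: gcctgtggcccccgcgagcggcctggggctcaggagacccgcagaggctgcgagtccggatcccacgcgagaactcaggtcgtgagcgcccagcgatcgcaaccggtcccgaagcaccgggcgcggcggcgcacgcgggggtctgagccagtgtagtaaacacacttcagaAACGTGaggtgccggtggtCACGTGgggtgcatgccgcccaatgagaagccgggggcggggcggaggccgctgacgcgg

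Per3 carried the D-box TTATGTAA in 2 copies, at -205 to -198 and at -158 to -151 from its start site. The D-box is the sequence that the DBP protein binds, and it stood in 0.931% of 32851 mouse promoter windows of this length. Per1 carried an E-box at -166 to -161 from its first start site. Cry1 carried an E'-box at -79 to -74 and an E-box at -60 to -55, and E'-boxes also stood upstream of Cry2 (-166 to -161) and of Nr1d1 (-28 to -23). Of all windows, 6.02% held an E-box and 3.85% an E'-box. Of the 9 genes, 5 had a match of any kind and 2 had an E-box. No match stood in the windows of Arntl, Clock, Nr1d2 or Dbp. The NR1D element and the CRE, found in 5.38% and 1.55% of all windows, were not in these windows of the 9 genes. Bases outside the windows and other spellings of the elements were not searched. The absence of a match, for Arntl as for the others, therefore does not show that a gene lacks the element. The printed matches do not overlap each other, and a match is a description of the letters and not a measured binding site.

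**Figure D1:**
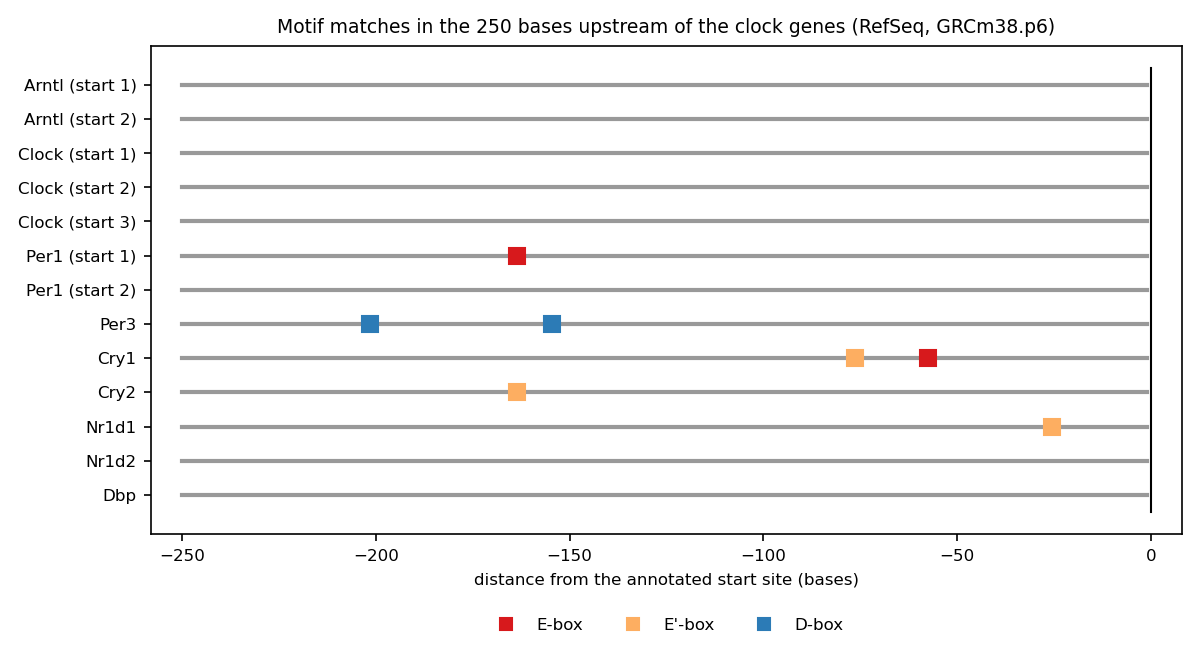
Motif matches in the 250 bases upstream of the 13 RefSeq start sites of 9 clock genes. The x axis is the distance from the start site in bases, each grey line is 1 window and each square is 1 match. Per3 has 2 D-boxes and no E-box, while Per1 (first start) and Cry1 have 1 E-box each.

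The tables hold scaled counts, which are reads per gene multiplied by a factor for each library and rounded. Their sums ran from 8435016 to 9279227 per library in the table of OLZ+MINO, OLZ and CTRL, and from 8783427 to 9447616 in the table of MINO and CTRL. The tables were scaled separately, so MINO was compared with the CTRL values of its own table, and no test of the interaction of the drugs was made. Log2(scaled count + 1) was tested with limma, p-values were adjusted with the Benjamini-Hochberg method across each table, and a gene was called at an adjusted p under 0.3, the false discovery rate used in the study. Because CTRL and OLZ libraries enter more than one comparison, the comparisons are not independent of each other. By limma's array weights, which fall where a library departs from its group over all genes, OLZ+MINO mouse 48 (0.54) and CTRL mouse 5 (0.69) stood furthest apart in the first table. Values without them are given where they matter. Fold changes are on the scale of log2(scaled count + 1).

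All 10 genes were well above the bottom of the tables. Divided by the length of their merged exons, levels in CTRL libraries were highest for Nr1d2, which encodes a REV-ERB repressor, at 241 scaled counts per kb. Dbp followed with 106, Cry2 with 97.5, Nr1d1 with 87.7 and Clock with 84.0 scaled counts per kb. Per3 (61.5), Per1 (49.8), Cry1 (45.5) and Per2 (36.9) came next, and Arntl had the lowest level, 24.4 scaled counts per kb. Nr1d2 came first and Arntl last in OLZ+MINO and OLZ libraries as well. Of the 9 neighbouring pairs in this order, 7 overlapped in their CTRL ranges, and Nr1d2 stood apart from Dbp, and Clock from Per3. In OLZ+MINO and in OLZ libraries 6 of 9 neighbouring pairs overlapped, and in MINO libraries 5 of 9. Scatter between mice of 1 group differed by gene, with coefficients of variation between 3.45% for Nr1d2 and 25.6% for Dbp in CTRL mice.

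**Figure D2:**
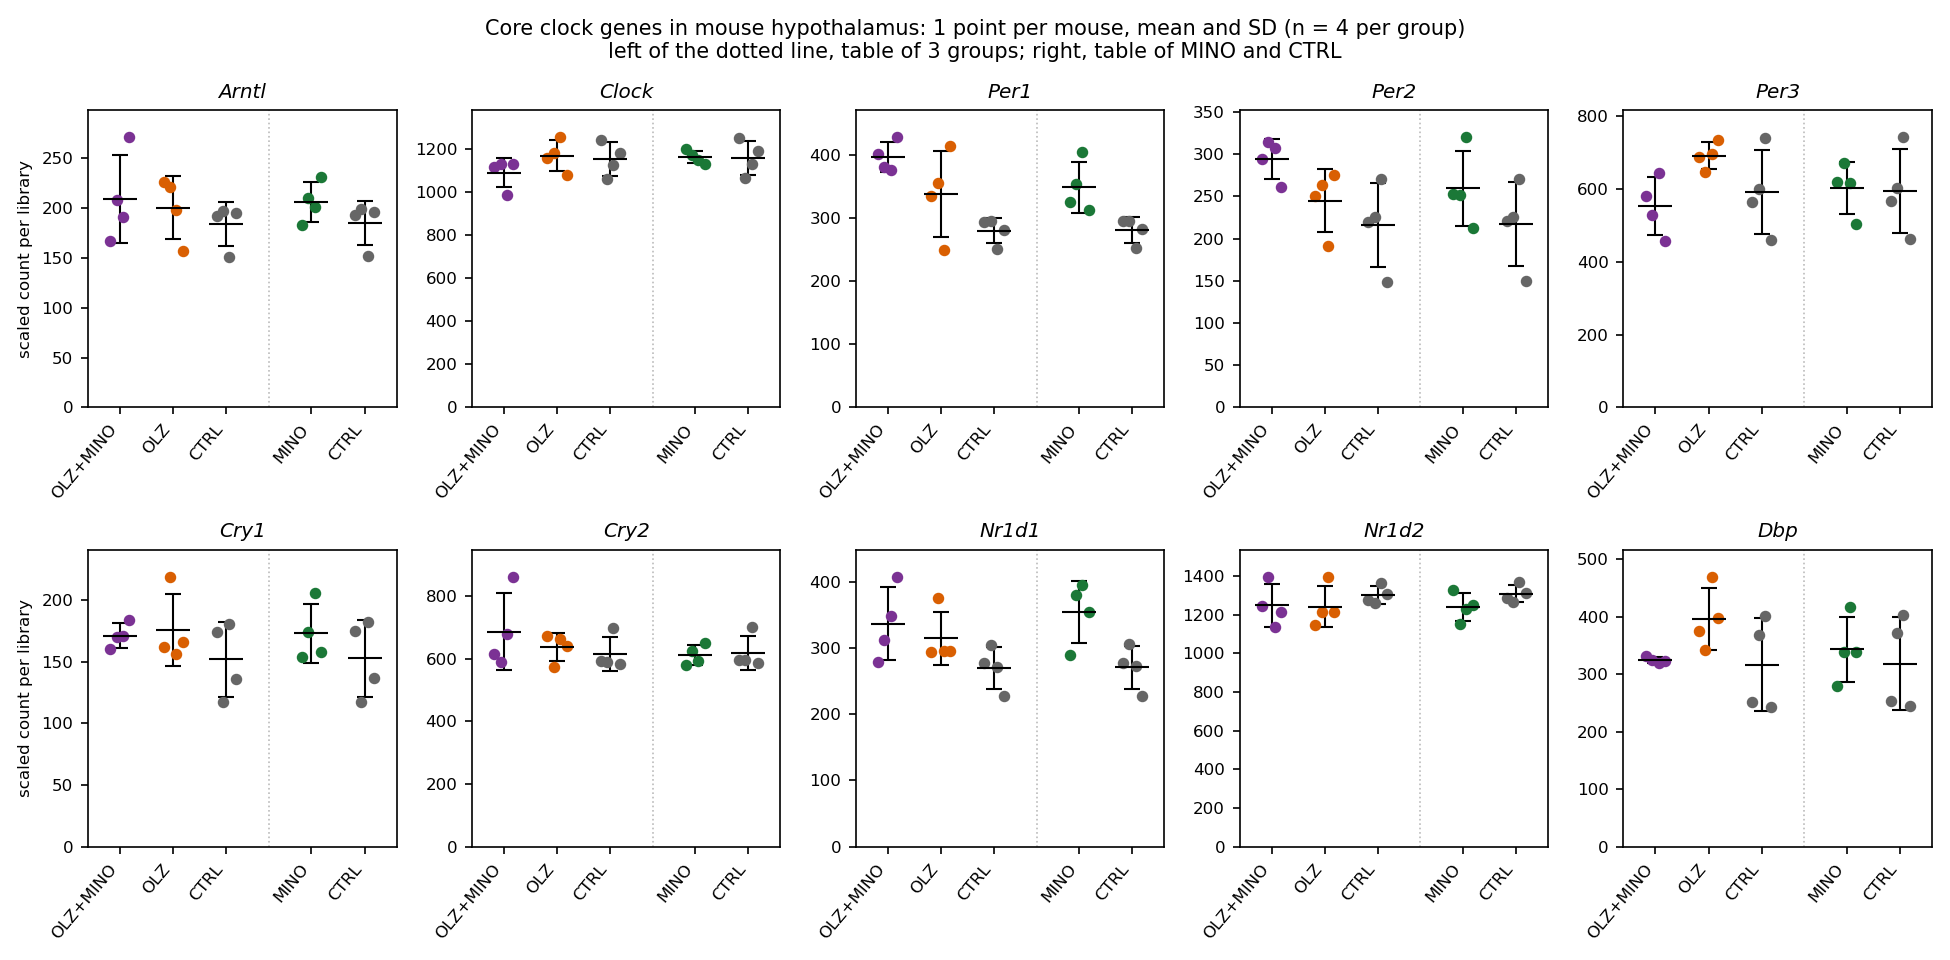
Scaled counts of the 10 clock genes in each library (y axis, from 0), with 1 point per mouse and the mean ± SD of the 4 mice of each group in black. Groups left of the dotted line are from the table of OLZ+MINO, OLZ and CTRL, and those to the right from the table of MINO and CTRL. Per3 in OLZ+MINO (456 to 644) lies below Per3 in OLZ (646 to 735), and Per1 in OLZ+MINO (376 to 428) lies above Per1 in CTRL (251 to 295).

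OLZ was set against CTRL to ask what olanzapine did to these genes on a high fat diet. No clock gene passed the test, while 3.64% of all genes did (582 of 15983). Mean levels were higher in OLZ for 9 of the 10 genes and lower for Nr1d2, with a median log2 fold change of 0.21 over the 10 genes and 0.00 over all genes. Of the 10, 1 had an unadjusted p under 0.05, as had 1828 of all genes, and all 10 overlapped between the groups (6.95% of all genes did not overlap).

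Dbp (ENSMUSG00000059824, GRCm38 chr7:45705088-45710203, plus strand), a PAR bZIP transcription factor switched on directly by CLOCK and ARNTL, showed the largest mean difference of the 10. It had 376, 342, 470 and 398 scaled counts in OLZ mice 13, 14, 17 and 19, against 252, 369, 402 and 243 in CTRL mice 3, 4, 5 and 11. CTRL mice 3 and 11 were below all OLZ mice, and CTRL mice 4 and 5 lay within the OLZ range. The means were 397 ± 54.1 in OLZ and 317 ± 80.9 in CTRL (SD, n = 4 each), a log2 fold change of 0.35 ± 0.15 (SE) with an adjusted p of 0.385 by limma. The value leaned on single CTRL mice in both directions. It was 0.48 without CTRL mouse 5 (adjusted p 0.211), 0.25 without CTRL mouse 3 (0.629) and 0.24 without CTRL mouse 11 (0.726), and over the alternatives run the adjusted p lay between 0.142, without both low-weight libraries, and 0.726.

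The Per genes, whose proteins form the repressing complex with CRY, all had higher means in OLZ. Per3 had 688, 646, 696 and 735 scaled counts in OLZ mice 13, 14, 17 and 19, against 565, 599, 739 and 460 in CTRL mice 3, 4, 5 and 11. CTRL mouse 5 was the highest of these 8 libraries, and the other CTRL mice were below all OLZ mice. Its log2 fold change of 0.25 ± 0.13 (SE) had an adjusted p of 0.489. It was 0.36 without CTRL mouse 5 (adjusted p 0.256) and 0.13 without CTRL mouse 11 (0.80), and the adjusted p over the alternatives lay between 0.122 and 0.80.

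Per1, an early responder to light and to glucocorticoids, had 335, 356, 249 and 414 scaled counts in OLZ mice 13, 14, 17 and 19, against 294, 295, 251 and 281 in CTRL mice 3, 4, 5 and 11. OLZ mouse 17 lay below all CTRL mice and the other OLZ mice lay above them. Here the log2 fold change was 0.25 ± 0.13 (SE) with an adjusted p of 0.479. It was 0.39 without OLZ mouse 17 (adjusted p 0.177) and 0.15 without OLZ mouse 19 (0.73), the ends of the range over the alternatives. Per2 averaged 245 ± 37.3 in OLZ and 216 ± 50.01 in CTRL (SD, n = 4 each), and its log2 fold change of 0.20 had a 95% confidence interval of -0.15 to 0.54. Leaving out CTRL mouse 11, the lowest for Per2, brought it to 0.03, and leaving out CTRL mouse 5 to 0.32.

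Among the remaining genes the intervals of the difference all included 0. Arntl, the activator whose loss alone stops the mouse clock, averaged 201 ± 31.5 in OLZ and 184 ± 21.9 in CTRL, with a log2 interval of -0.22 to 0.46. Clock, its partner, averaged 1170 ± 71.2 in OLZ and 1154 ± 78.5 in CTRL, with an interval of -0.14 to 0.18. The cryptochrome repressors Cry1 and Cry2 had log2 fold changes of 0.22 and 0.05. Nr1d1, which encodes REV-ERB alpha, was at 0.22, and Nr1d2 at -0.07. The interval of Nr1d2, -0.24 to 0.09, was with that of Clock the narrowest of the 10.

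**Figure D3:**
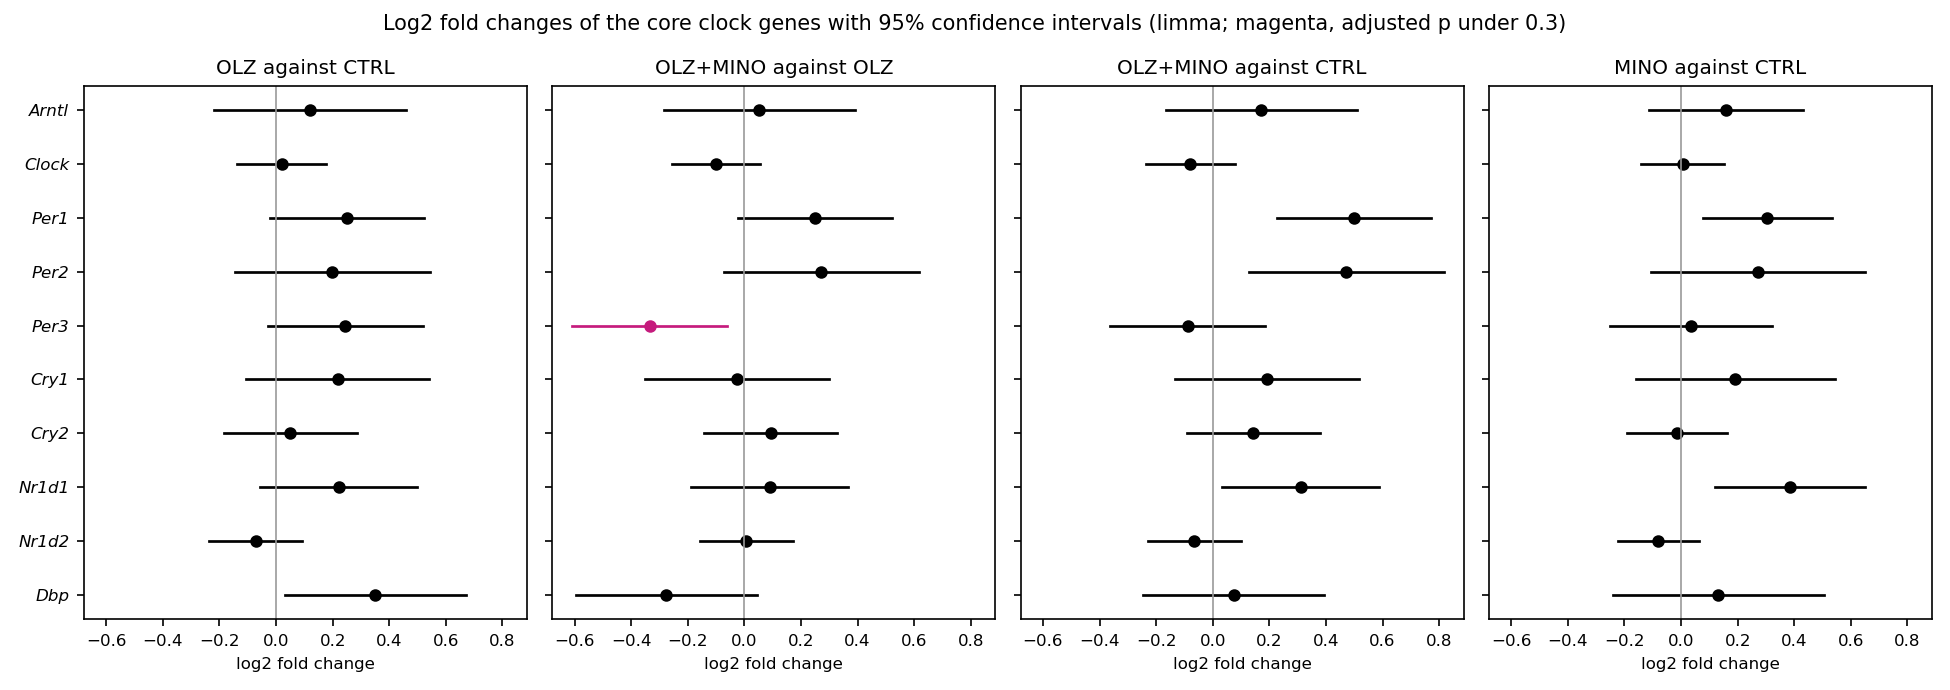
Log2 fold changes of the 10 clock genes in the 4 comparisons (x axis), with 95% confidence intervals from limma. The first group named in a panel is over the second, and magenta marks an adjusted p under 0.3. Per3 for OLZ+MINO against OLZ, at -0.33, is the one magenta point.

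OLZ+MINO was set against OLZ to ask what minocycline added to olanzapine. Per3 fell, and it was the single clock gene called, 1 of 10, beside 12.4% of all genes (1974 of 15983). The share among the 10 genes was therefore close to the background. In this comparison 6 genes had higher and 4 had lower means in OLZ+MINO, with a median log2 fold change of 0.03. Per3 and Dbp, 2 of the 10, lay below OLZ in every OLZ+MINO mouse, and 7.7% of all genes did not overlap between the groups.

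Per3 (ENSMUSG00000028957, GRCm38 chr4:151003652-151044665, minus strand), a Per paralogue that the mouse clock can run without, had 580, 528, 644 and 456 scaled counts in OLZ+MINO mice 37, 40, 47 and 48, against 688, 646, 696 and 735 in OLZ mice 13, 14, 17 and 19. OLZ+MINO mouse 47 was within 2 scaled counts of OLZ mouse 14, and mouse 48 was the lowest. Means were 552 ± 79.7 in OLZ+MINO and 691 ± 36.5 in OLZ (SD, n = 4 each), a 0.793-fold level with a 95% confidence interval of 0.656 to 0.959. The log2 fold change of -0.33 ± 0.13 (SE) had an adjusted p of 0.241 by limma, past the threshold of 0.3 and not that of 0.05. The call was lost without OLZ+MINO mouse 48 (log2 fold change -0.25, adjusted p 0.511), and also without OLZ+MINO mouse 40 or any 1 of the 4 OLZ mice. Without both low-weight libraries the adjusted p was 0.367, and over the alternatives run it lay between 0.147 and 0.511.

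Dbp was nearly even in OLZ+MINO, with 332, 325, 320 and 323 scaled counts in mice 37, 40, 47 and 48, against 376, 342, 470 and 398 in OLZ mice 13, 14, 17 and 19. Its SD of 5.10 in OLZ+MINO was the smallest of any clock gene in any group, where CTRL had an SD of 80.9. The coefficient of variation of Dbp in OLZ+MINO was 1.57%. Counting noise alone would give about 5.55% at that mean, if scaled counts are taken as counts. So small a spread need not be a trait of the group. For OLZ+MINO against OLZ the log2 fold change of Dbp was -0.28 ± 0.15 (SE), with an adjusted p of 0.409 by limma. The adjusted p was 0.255 when the fit held the 2 compared groups alone, the lowest over the alternatives. The highest was 0.627 without OLZ mouse 17. Dbp is thus a gene whose groups did not overlap and which was not called.

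Per1 and Per2 had higher means in OLZ+MINO, opposite in sign to Per3. Per1 averaged 397 ± 23.6 in OLZ+MINO and 339 ± 68.4 in OLZ, and Per2 294 ± 23.5 in OLZ+MINO and 245 ± 37.3 in OLZ (SD, n = 4 each). Their log2 fold changes were 0.25 and 0.27, with adjusted p-values of 0.381 and 0.45. Single OLZ mice moved both. Per1 was at 0.35 and called without OLZ mouse 19 (adjusted p 0.231) and at 0.11 without OLZ mouse 17 (0.678), the ends of its range over the alternatives, and Per2 was at 0.16 without OLZ mouse 17 (0.71). Clock, at -0.10 with an interval of -0.26 to 0.06, was called after quantile normalization (adjusted p 0.294), with adjusted p-values up to 0.785 under the other alternatives. The log2 fold changes of Arntl, Cry1, Cry2, Nr1d1 and Nr1d2 lay between -0.03 and 0.09.

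Against CTRL, OLZ+MINO mice carried both drugs at once. None of the 10 genes was called, nor were many others, 0.025% of all genes (4 of 15983). Of the 10, 3 had an unadjusted p under 0.05, namely Per1, Per2 and Nr1d1, as had 989 of all genes. Means were higher in OLZ+MINO for 7 genes and lower for 3, with a median log2 fold change of 0.16 over the 10 and 0.00 over all genes.

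Per1 (ENSMUSG00000020893, GRCm38 chr11:69095217-69109960, plus strand) had 401, 381, 376 and 428 scaled counts in OLZ+MINO mice 37, 40, 47 and 48, against 294, 295, 251 and 281 in CTRL mice 3, 4, 5 and 11. Every OLZ+MINO mouse was above every CTRL mouse, and Per1 was the 1 clock gene of the 10 without overlap (2.93% of all genes). The fold was 1.41, with a 95% confidence interval of 1.17 to 1.71, and Per1 ranked 37 of 15983 genes by p. The log2 fold change of 0.50 ± 0.13 (SE) had an unadjusted p of 0.00138 and an adjusted p of 0.573 by limma. Leaving out each library in turn kept it between 0.45 and 0.53, and without both low-weight libraries it was 0.41.

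Per2, which with Per1 is needed for a lasting rhythm in mice, had 294, 314, 307 and 261 scaled counts in OLZ+MINO mice 37, 40, 47 and 48, against 220, 225, 270 and 149 in CTRL mice 3, 4, 5 and 11. OLZ+MINO mouse 48 lay below CTRL mouse 5, and apart from this pair every OLZ+MINO mouse was above every CTRL mouse. The log2 fold change was 0.47 ± 0.16 (SE), with an adjusted p of 0.787. It was 0.30 without CTRL mouse 11 and 0.64 without both low-weight libraries. Nr1d1 had 279, 312, 348 and 408 in OLZ+MINO mice 37, 40, 47 and 48, against 277, 304, 272 and 227 in CTRL mice 3, 4, 5 and 11, a log2 fold change of 0.31 ± 0.13 (SE) with an adjusted p of 0.787. Per3 (-0.09) and Dbp (0.07) lay close to 0 here, and their intervals of -0.36 to 0.18 and -0.25 to 0.39 do not show that they were equal.

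Arntl had 167, 208, 191 and 271 scaled counts in OLZ+MINO mice 37, 40, 47 and 48, against 192, 197, 151 and 195 in CTRL mice 3, 4, 5 and 11. OLZ+MINO mouse 48 stood above all others and CTRL mouse 5 below them, and the log2 fold change of 0.17 had an interval of -0.17 to 0.51. Cry1 had 160, 170, 171 and 184 in OLZ+MINO mice 37, 40, 47 and 48, against 174, 117, 181 and 136 in CTRL mice 3, 4, 5 and 11. Its OLZ+MINO values were close together, with 3 inside the CTRL range and mouse 48 just above it, and had a log2 fold change of 0.19. Cry2 had 615, 589, 680 and 862 in OLZ+MINO mice 37, 40, 47 and 48, where mouse 48 was again the highest, against 593, 591, 698 and 582 in CTRL mice 3, 4, 5 and 11. Clock (-0.08) and Nr1d2 (-0.06), the genes with the most counts of the 10, had intervals of -0.24 to 0.08 and -0.23 to 0.10.

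MINO was set against CTRL to ask what minocycline did without olanzapine. No clock gene was called and neither was any other gene by limma (0.0% of 16005), while 1026 genes, 2 clock genes among them, had an unadjusted p under 0.05. Means of 8 genes were higher in MINO and those of Nr1d2 and Cry2 were lower. The median log2 fold change was 0.15 over the 10 genes and 0.00 over all genes.

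Nr1d1, whose protein represses Arntl, differed most, with 290, 381, 396 and 354 scaled counts in MINO mice 26, 31, 35 and 36, against 278, 306, 273 and 228 in CTRL mice 3, 4, 5 and 11. MINO mouse 26 lay within the CTRL range and the other MINO mice above it. The fold was 1.31, with a 95% confidence interval of 1.09 to 1.57, and the log2 fold change of 0.39 ± 0.12 (SE) had an adjusted p of 0.768. Per1 had 325, 354, 404 and 313 in MINO mice 26, 31, 35 and 36, against 296, 296, 252 and 282 in CTRL mice 3, 4, 5 and 11. Every MINO mouse was above every CTRL mouse for Per1 (3.25% of all genes did not overlap), with a log2 fold change of 0.31 ± 0.10 (SE) and an adjusted p of 0.768.

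Per2 averaged 260 ± 44.4 in MINO and 217 ± 50.01 in CTRL, and Per3 603 ± 70.1 in MINO and 594 ± 115 in CTRL (SD, n = 4 each). Dbp averaged 344 ± 56.6 in MINO and 319 ± 81.4 in CTRL, and Arntl 206 ± 19.96 in MINO and 185 ± 22.1 in CTRL. All of these groups overlapped. Cry1 (0.19), Cry2 (-0.02), Clock (0.01) and Nr1d2 (-0.08) had log2 fold changes whose intervals included 0 as well. Per3, which fell for OLZ+MINO against OLZ, had a log2 fold change of 0.03 here, with an interval of -0.25 to 0.32. Whether minocycline acted differently with and without olanzapine was not tested.

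Dbp minus Arntl, on the log2 scale of the scaled counts, served as a rough index of circadian phase, and it was above 0 in all 16 libraries. The counts were not divided by exon length, so an index of 0 marks no phase and only differences between libraries are read. The index was 0.99, 0.64, 0.74 and 0.25 in OLZ+MINO mice 37, 40, 47 and 48, and 0.73, 0.63, 1.24 and 1.34 in OLZ mice 13, 14, 17 and 19. In CTRL mice 3, 4, 5 and 11 it was 0.39, 0.90, 1.41 and 0.32. CTRL mice alone spanned nearly the whole range, and the groups overlapped. MINO mice 26, 31, 35 and 36 had 0.61, 0.69, 1.05 and 0.55, within the CTRL range. CTRL mouse 5, the highest, and OLZ+MINO mouse 48, the lowest, were also the libraries of lowest weight over all genes. The part of the hour of collection in these values was not tested.

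**Figure D4:**
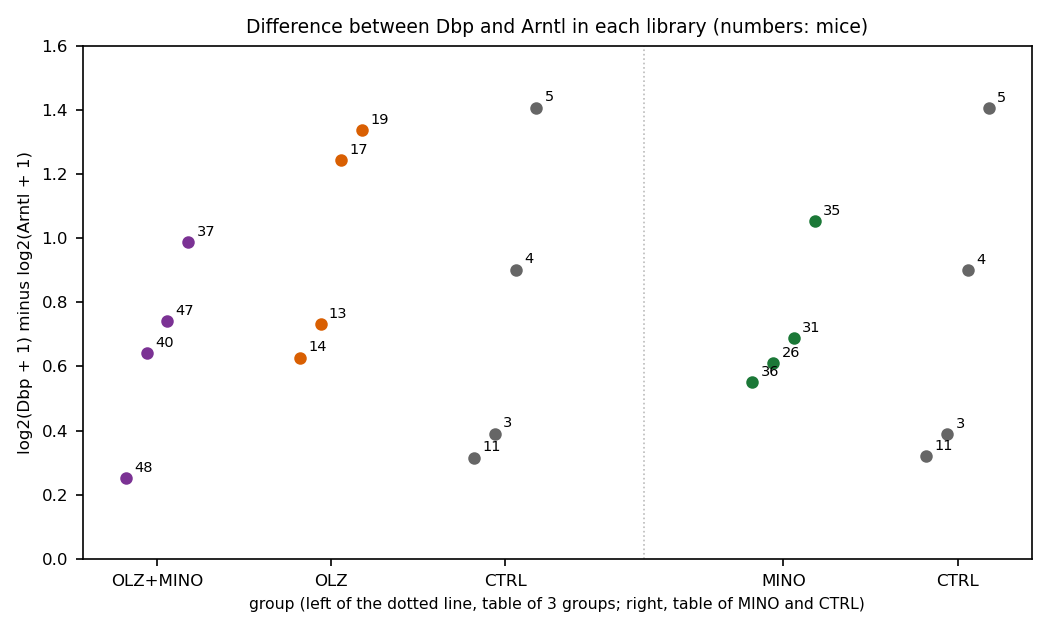
Difference between log2(Dbp + 1) and log2(Arntl + 1) in each library (y axis), by group, with mouse numbers beside the points. The highest value is that of CTRL mouse 5 (1.41) and the lowest that of OLZ+MINO mouse 48 (0.25), and all groups overlap.

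With the group means subtracted, the 10 genes gave 45 pairs over the 12 libraries of the first table. Arntl and Per3 ran opposite to each other, with a Pearson r of -0.72 and a Spearman rho of -0.73, and r was -0.67 without the 2 libraries farthest from the median of Arntl. Per2 and Per3 ran together (r = 0.72, rho = 0.50), as did Per3 and Dbp (r = 0.65, rho = 0.66). The last r was 0.23 without the 2 libraries farthest from the median of Per3. The other pairs with an r of at least 0.5 in size were Per1 and Nr1d2 (-0.57), Clock and Nr1d2 (0.54), Arntl and Nr1d1 (0.54) and Clock and Per3 (-0.52). All were weaker without the 2 libraries farthest from the median of the first gene of the pair. The r was then -0.33 for Per1 and Nr1d2, 0.36 for Clock and Nr1d2 and -0.41 for Clock and Per3. For Arntl and Nr1d1, whose protein represses Arntl, the r was 0.34 without the 2 libraries farthest from the median of Arntl. Arntl and Dbp, the pair of the index, had an r of -0.36 and a rho of -0.46. In the 8 libraries of the MINO table, which share the CTRL mice, the r was -0.74 for Arntl and Per3, 0.85 for Per2 and Per3, 0.62 for Per3 and Dbp and -0.56 for Per1 and Nr1d2. The r of Clock was 0.11 with Nr1d2 and -0.21 with Per3. That of Arntl was 0.23 with Nr1d1 (-0.36 without the farthest 2) and -0.29 with Dbp. Of the 45 pairs in that table, 7 had an r of at least 0.5 and 7 of at most -0.5. The lowest was Clock and Dbp, at -0.78, where the first table had -0.31. These are descriptions, since all genes of a library share its scaling factor and its dissection.

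**Figure D5:**
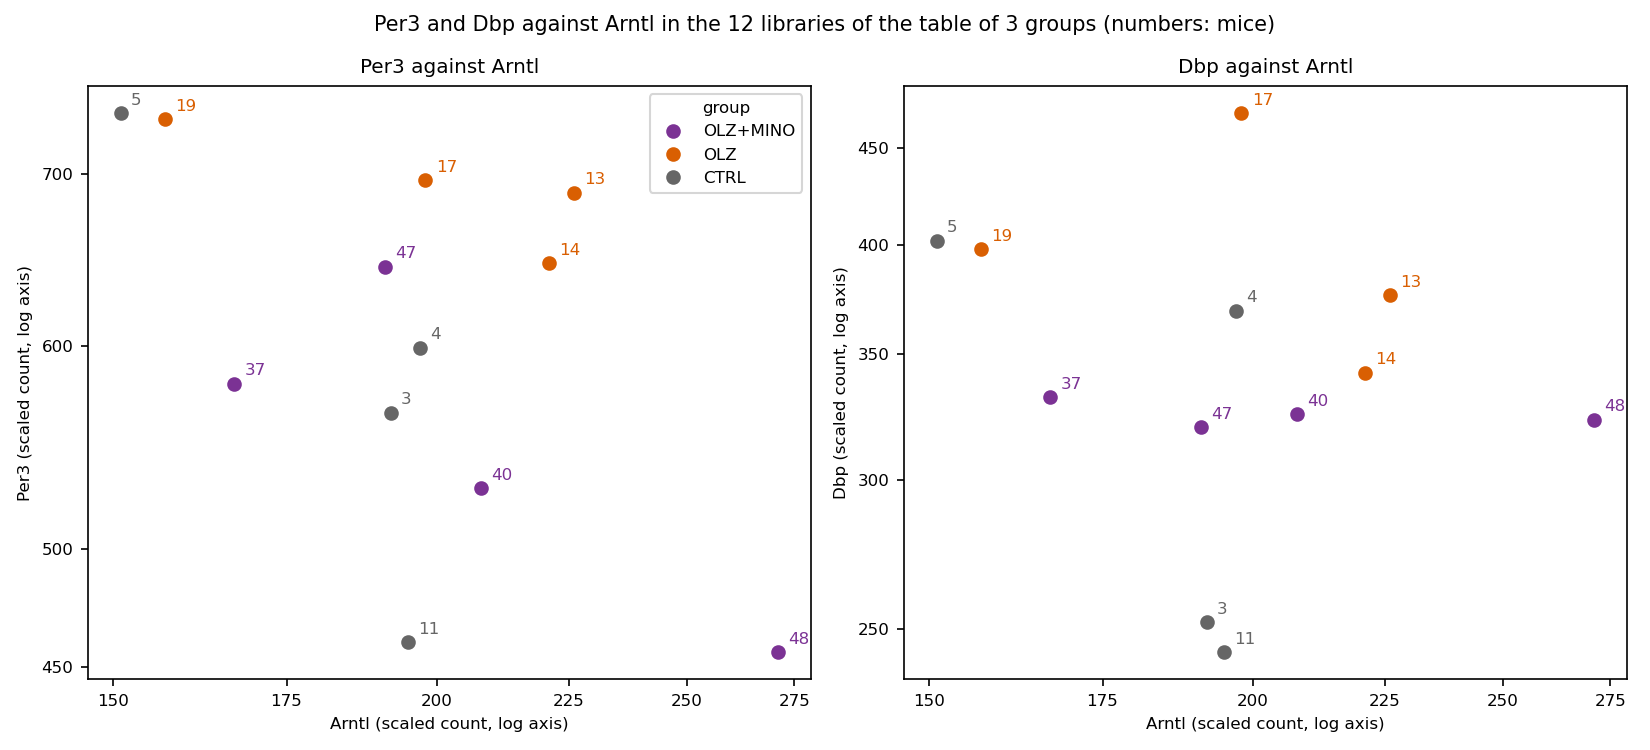
Scaled counts of Per3 (left) and Dbp (right) against Arntl in the 12 libraries of the table of OLZ+MINO, OLZ and CTRL, on log axes, with 1 point per mouse and mouse numbers beside them. OLZ+MINO mouse 48 has the most Arntl (271) and the least Per3 (456), and CTRL mouse 5 the least Arntl (151) and the most Per3 (739).

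Other parts of the clock machinery were described by lists. Of 10 other clock transcription factors (Npas2, Arntl2, Rora, Rorb, Bhlhe40, Bhlhe41, Nfil3, Tef, Hlf and Ciart), all but Ciart were measured and none was called in any comparison. Their median log2 fold changes were 0.07 for OLZ against CTRL, 0.02 for OLZ+MINO against OLZ, 0.07 for OLZ+MINO against CTRL and 0.06 for MINO against CTRL. Of the 12 clock protein kinases, ligases and partners, 1 rose for OLZ against CTRL and 1 fell for OLZ+MINO against OLZ, beside 3.64% and 12.4% of all genes called. None was called in the other comparisons, and the medians were -0.06, 0.00, 0.00 and -0.04 in the order just given.

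Timeless, the mouse relative of a fly clock gene that also acts at the replication fork, was the one that rose with OLZ. It averaged 83.3 ± 19.0 in OLZ and 52.0 ± 17.3 in CTRL (SD, n = 4 each), a log2 fold change of 0.71 ± 0.24 (SE) with an adjusted p of 0.298. Csnk1a1, a casein kinase gene, fell to 2146 ± 82.4 in OLZ+MINO, against 2382 ± 91.3 in OLZ, a log2 fold change of -0.15 with an adjusted p of 0.274. For both genes these values lie just inside the threshold of 0.3. Just outside it by limma were Csnk1a1 for OLZ against CTRL (log2 fold change 0.16, adjusted p 0.338) and Timeless for OLZ+MINO against OLZ (-0.52, adjusted p 0.329). Both genes thus had their highest mean in OLZ, and OLZ+MINO against CTRL gave 0.01 for Csnk1a1 and 0.19 for Timeless.

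Of the 7 rhythmic output genes 6 were measured. Of these, 1 rose for OLZ against CTRL and 2 fell for OLZ+MINO against OLZ, beside 3.64% and 12.4% of all genes called. Lonrf3 had 213, 238, 243 and 197 scaled counts in OLZ mice 13, 14, 17 and 19, against 185, 172, 139 and 171 in CTRL mice 3, 4, 5 and 11. In OLZ+MINO mice 37, 40, 47 and 48 it had 176, 189, 191 and 160. OLZ mice were thus above the mice of both other groups. The log2 fold change was 0.42 ± 0.12 (SE) for OLZ against CTRL (adjusted p 0.223) and -0.31 ± 0.12 for OLZ+MINO against OLZ (adjusted p 0.241). Nampt, the enzyme gene that sets the pace of NAD salvage, averaged 490 ± 30.1 in OLZ+MINO and 568 ± 53.2 in OLZ, with a log2 fold change of -0.21 and an adjusted p of 0.261. The medians of this list were 0.13 for OLZ against CTRL, -0.16 for OLZ+MINO against OLZ, 0.03 for OLZ+MINO against CTRL and 0.07 for MINO against CTRL.

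Per1 also answers to neuronal activity and glucocorticoids, so lists of both kinds were set beside it. Of 12 measured immediate early genes, Egr1 and Npas4 rose for OLZ+MINO against OLZ, where 12.4% of all genes were called. None was called elsewhere. Their median log2 fold change was 0.52 for OLZ+MINO against OLZ, 0.59 for OLZ+MINO against CTRL, 0.57 for MINO against CTRL and -0.07 for OLZ against CTRL, while the mean of Per1 was higher in all 4 comparisons. The summed level of the list overlapped between groups, at 1254 to 1655 in OLZ+MINO, 813 to 1458 in OLZ and 818 to 1957 in CTRL. Of the 10 glucocorticoid receptor targets, Zbtb16 rose and Mt1 fell for OLZ+MINO against OLZ and none was called elsewhere, with medians between 0.04 and 0.12 in the 4 comparisons. Their part in the values of Per1 was not tested.

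Markers of the suprachiasmatic nucleus and of other tissue were summed per library to show what each dissection held. In bulk tissue, fewer cells of a type and less RNA per cell cannot be told apart. Of 8 measured suprachiasmatic markers, Avp and Six6 fell for OLZ+MINO against OLZ, where 12.4% of all genes were called. The list did not move as a whole, with 4 log2 fold changes above 0, 4 below and a median of -0.04. It summed to 680 to 2469 in OLZ+MINO, 2020 to 3605 in OLZ and 657 to 2529 in CTRL. Avp, at a mean of 1971 in OLZ, made up much of these sums. Avp, a neuropeptide gene of that nucleus and of others, was at 91 scaled counts in OLZ+MINO mouse 48 and 120 in CTRL mouse 11, the mice with the lowest Per3. It was at 507 in CTRL mouse 5, where Per3 was highest, so the order was not the same throughout. In the MINO table, where 10 suprachiasmatic markers were measured, none was called, as no gene of that table was. Still, log2 fold changes for MINO against CTRL were above 0 for 9 of them and below 0 for 1, with a median of 0.88. By limma 3 had an unadjusted p under 0.05, as had 1026 of all genes. The list summed to 881 to 4250 in MINO and 668 to 2566 in CTRL.

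Markers of tanycytes, the ependymal cells that line the floor and lower walls of the third ventricle, differed between groups. Of 14, 10 rose for OLZ against CTRL and 10 fell for OLZ+MINO against OLZ, beside 3.64% and 12.4% of all genes called. The 14 summed to 1310 to 1582 in OLZ+MINO, 2649 to 4494 in OLZ and 1146 to 1640 in CTRL. In the MINO table none of the 14 was called, but all 14 had log2 fold changes above 0 for MINO against CTRL, with a median of 0.89. They summed to 1568 to 3257 in MINO and 1153 to 1651 in CTRL. Thalamic markers, 6 of 6 measured and none called, summed to 569 to 6203 in OLZ+MINO, 556 to 665 in OLZ and 584 to 2155 in CTRL. Hypothalamic markers, 11 of 11 measured, summed to 818 to 8151 in OLZ+MINO, 3425 to 7509 in OLZ and 5908 to 8381 in CTRL, with Fezf1 the one that fell for OLZ+MINO against OLZ. The part of these cell populations in the fall of Per3 was not tested.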

How the data were processed

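RNA from the hypothalamus of each mouse was extracted with TRIzol, made into TruSeq libraries and sequenced on an Illumina instrument. The authors mapped reads with Bowtie2, counted them with RSEM and used limma, and the submitters' processing notes name mm9. The sources used here give no versions, scaling method or filter. Each deposited value of a library is a signal, a read count scaled by a factor per library and rounded by the authors. The factor shows in the CTRL libraries, whose values in the MINO table are those of the other table times 1.00479 to 1.00615. Columns of the authors' group means, fold changes, log2 ratios, local false discovery rates and FDR were not used.

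With R 4.3.3, limma 3.58.1 (lmFit, then eBayes allowing an intensity trend) was applied to log2(value + 1), with OLZ+MINO, OLZ and CTRL in 1 fit and MINO and CTRL in another. The procedure was tested on simulated data. The members and gene lists were chosen with earlier results of these data known, and 1 listed gene is not reported here. Named were the 10 members, every called gene of the other clock transcription factors, clock protein kinases and rhythmic output genes, what was needed to describe the other lists, and for Dbp and Arntl the 5 genes with the highest correlation over 12 libraries among those with a mean of at least 50. Alternatives were quantile and median ratio scaling, a pseudocount of 0.1, a minimum mean of 50, no intensity trend, array weights, only the compared groups, a threshold of 0.05 and leaving out libraries. Exon lengths are from GENCODE M21 on GRCm38, matched by Ensembl identifier, and promoters from RefSeq. Confidence intervals are at 95%. Scaled values carry no exact depth, so no counting intervals are given.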

Additional observations from a re-analysis of the deposited data

Results flagged for a closer look

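In 50 sets of 4 libraries (10 genes in the 5 groups of both tables, CTRL being in each), 7 held a library whose gap to its nearest neighbour took up nearly the whole range of its group by Dixon's criterion. Chance alone flags about 1 in 20 such sets. CTRL mouse 5 was the lowest CTRL library for Arntl, with 151 scaled counts in the table of 3 groups and 152 in the MINO table, where the other CTRL mice had 192 to 197 in the first. It was also the highest CTRL library for Cry2, with 698 and 701 in those tables, against 582 to 593 for the others in the first. Both tables hold the same CTRL libraries, so these 4 values are 2 observations. OLZ mouse 14 had the most Nr1d1 (375, others 294 to 296) and the most Cry1 (219, others 156 to 166) of the OLZ mice. Clock was lowest in OLZ+MINO mouse 47, at 989, where the other OLZ+MINO mice had 1115 to 1131.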

How the results depend on the processing

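No paired analysis was possible because the mouse numbers are not shared between groups. For OLZ against CTRL, 0 clock genes were called, 1 with array weights and 2 without CTRL mouse 5 and OLZ+MINO mouse 48, and 0 to 2 with each library left out in turn. For OLZ+MINO against OLZ, 1 was called, 0 at a threshold of 0.05, without the intensity trend or without both of those mice, 2 with quantile normalization or only the compared groups, and 0 to 1 with each library left out. For the other comparisons the count was 0 under every alternative run. Signs turned only for log2 fold changes that were not called. For OLZ+MINO against OLZ, Arntl was at -0.014 with array weights and -0.079 without both mice, Cry2 at -0.021 and Nr1d1 at -0.0069 without both, and Nr1d2 at -0.031 with quantile normalization. For OLZ+MINO against CTRL, Arntl was at -0.051 and Per3 at 0.11 without both. For MINO against CTRL, Cry2 was at 0.0030 with quantile normalization. With each library left out, signs turned within these ranges: Clock -0.019 to 0.058 for OLZ against CTRL; Arntl -0.079 to 0.15, Cry1 -0.078 to 0.084, Cry2 -0.021 to 0.16, Nr1d1 -0.0069 to 0.18 and Nr1d2 -0.048 to 0.064 for OLZ+MINO against OLZ; Per3 -0.20 to 0.026 and Dbp -0.041 to 0.20 for OLZ+MINO against CTRL; Clock -0.033 to 0.043, Per3 -0.078 to 0.15 and Cry2 -0.045 to 0.045 for MINO against CTRL. The causes were not tested. Over all genes, counts of calls with 1 library left out ran from 2 to 1470 for OLZ against CTRL, 187 to 2834 for OLZ+MINO against OLZ, 0 to 4 for OLZ+MINO against CTRL and 0 to 3 for MINO against CTRL. Other settings gave 2 (threshold 0.05), 193 (no trend), 1652 (array weights), 1558 (compared groups) and 2116 (without both mice) for the first, 54 (threshold 0.05), 1023 (no trend) and 743 (without both mice) for the second, and 15 (no trend) or 0 (threshold 0.05, array weights, compared groups, without both mice) for the third. With 4 mice a group, the 95% interval of a clock gene was up to 0.69 wide on the log2 scale in the first table and 0.76 in the second. Other genes could have wider intervals, such as Avp with an SE of 0.89 for OLZ+MINO against OLZ.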

Other observations

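The genes whose levels followed Dbp most closely over the 12 libraries of the table of 3 groups, among 11175 genes compared, were Rwdd3 (Pearson r = 0.90), Rabl3 (0.87), Rai2 (0.86), Cc2d2a (0.85) and Anapc1 (0.84). In the 8 libraries of the MINO table, which share the 4 CTRL mice, r was 0.73 for Rwdd3, 0.75 for Rabl3, 0.89 for Rai2, 0.81 for Cc2d2a and 0.89 for Anapc1. Those closest to Arntl were Cnksr3 (0.94), Sirt2 (0.90), Neb (0.90), Fgd3 (0.88) and Aqp4 (0.87), the last the water channel of astrocytes. In the MINO table r with Arntl was 0.40 for Cnksr3, 0.61 for Sirt2, 0.73 for Neb, 0.40 for Fgd3 and 0.87 for Aqp4. Group means were not subtracted for these r values, unlike those between the clock genes, so differences between groups enter them. These genes were picked as the highest of many, so the r values of the first table are large by selection, and all values share the scaling factor of each library.

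Of the cell type lists not described above, those of glia held most calls, for OLZ+MINO against OLZ, where 12.4% of all genes were called. Of 8 oligodendrocyte genes, Mbp, Mag and Mobp rose for OLZ+MINO against OLZ, and the list summed to 29901 to 44730 in OLZ+MINO, 21853 to 29285 in OLZ and 20690 to 46922 in CTRL. Of 5 astrocyte genes, Gfap rose for OLZ against CTRL, and Gfap and Slc1a3 fell for OLZ+MINO against OLZ. Of 5 microglia genes, Csf1r and Tmem119 fell for OLZ+MINO against OLZ. Of 3 measured genes of the pars tuberalis and pituitary, Pou1f1 rose for OLZ against CTRL. None of the 9 genes of meninges and fibroblasts, the 6 of endothelium and the 5 of ependyma was called in any comparison.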
